A study of Mus musculus with 20 samples.

Results

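The immediate early genes are genes that cells transcribe within minutes of a stimulus, without first having to make new protein. A set of 10 gene symbols was examined (*Fos*, *Fosb*, *Jun*, *Junb*, *Egr1*, *Ier2*, *Atf3*, *Nr4a1*, *Dusp1*, and *Btg2*), chosen by name and matched to the counts through the Ensembl identifier. Of these, 9 had a row of counts among the 15956 genes counted, and *Fosb* was not analysed here. All 9 passed the filter on low counts, as did 13991 genes in all.

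The RNA came from left ventricular heart tissue of 20 male mice, with 5 mice on each of 4 diets. NP was a normal-protein control diet, LP a low-protein diet with less casein, HF a high-fat diet with the casein content of NP, and HF + LP a high-fat diet with the casein content of LP. All mice were 18 months old according to the labels, whereas the methods of the study place tissue collection somewhat earlier. No strain is named in the sources used here, the mice were housed in groups, and the comparisons ask whether fat and protein content of the diet went with a different ventricular transcript level.

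Most of these genes encode transcription factors. Growth factor, stretch, calcium, and stress signals reach them through MAP kinases, the serum response factor with its partners, and CREB, and the transcripts decay quickly once the signal ends. In the heart they are known to respond to pressure load, catecholamines, and reperfusion, and in dissected tissue they also respond to the handling of the animal and the sample. In bulk tissue, a lower level from fewer cells of a type cannot be told apart from less RNA per cell.

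Libraries were made from the 3′ ends of transcripts, so longer transcripts do not gain reads through their length. Total counts per library lay between 12559607 and 23331907. Values are given below as normalized counts, meaning read counts scaled to the average library, and as log2 fold changes from edgeR with their standard error (SE). A gene was called at an adjusted p under 0.01 with a mean normalized count over 50, and 6 of the 9 genes were above that mean. *Fos* (11.6), *Atf3* (37.5), and *Ier2* (48.0) were below it and could not be called whatever their p. LP mouse 13 stood apart most, with a median correlation to the other LP libraries of 0.908, against 0.944 to 0.979 for the other 19 libraries. Transcripts of the mitochondrial genome took 38.7 ± 0.751% of counts in HF and 43.2 ± 2.48% in NP (mean ± SD, n = 5), 40.3 ± 3.94% in LP, and 43.3 ± 3.37% in HF + LP. Atrial cardiomyocyte markers were present in all libraries, at sums between 35.4 and 5471 CPM (counts scaled to library size). They exceeded 1000 CPM in 6 libraries (NP mouse 5, LP mice 13 and 15, HF mice 1 and 3, and HF + LP mouse 3). Their mean sums were 489 CPM for NP, 1572 for LP, 1237 for HF, and 464 for HF + LP, with medians over mice of 477, 629, 66.3, and 49.2 CPM. The median log2 fold change of the 5 markers was 1.21 in HF against NP and −1.42 in HF + LP against HF, with 0 of 5 at an unadjusted p under 0.05 in either. It was 1.33 in LP against NP (1 higher at that p) and −1.32 in HF + LP against LP (1 lower). The 9 ventricular cardiomyocyte markers were detected throughout, at mean sums of 49169 to 54070 CPM per diet. At an unadjusted p under 0.05, 3 of the 9 were lower in HF than NP (median log2 fold change −0.20), where 7.91% of all genes were.

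The upstream sequences are shown because activity at CREB-type elements is a classical route to several of these genes. The motif searched was TGACG or its reverse complement CGTCA, the core shared by CREB and ATF sites. The full palindrome TGACGTCA holds that core on both strands. Stretches run from shortly before the first match to the base before the RefSeq transcript start, on the strand of the gene, 5′ to 3′, with matches in capitals (RefSeq, GRCm38.p6). They lie at chr12:85473746-85473889 on the plus strand (*Fos*), chr8:84978749-84978869 on the minus strand (*Junb*), chr15:101266598-101266845 on the plus strand (*Nr4a1*), chr1:191183334-191183355 on the minus strand (*Atf3*), chr17:26508473-26508678 on the minus strand (*Dusp1*), and chr1:134079156-134079336 on the minus strand (*Btg2*).
Fos: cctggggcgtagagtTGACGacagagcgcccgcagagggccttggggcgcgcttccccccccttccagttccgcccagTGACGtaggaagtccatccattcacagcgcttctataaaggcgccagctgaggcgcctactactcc
Junb: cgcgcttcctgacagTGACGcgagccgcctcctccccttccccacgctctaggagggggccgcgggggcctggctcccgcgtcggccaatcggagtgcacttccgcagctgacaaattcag
Nr4a1: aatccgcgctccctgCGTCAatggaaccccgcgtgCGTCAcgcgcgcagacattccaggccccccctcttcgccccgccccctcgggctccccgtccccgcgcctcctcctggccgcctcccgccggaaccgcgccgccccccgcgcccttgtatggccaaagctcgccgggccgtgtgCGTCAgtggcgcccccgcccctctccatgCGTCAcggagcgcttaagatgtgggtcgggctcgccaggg
Atf3: ctattaatagcattaCGTCAgc
Dusp1: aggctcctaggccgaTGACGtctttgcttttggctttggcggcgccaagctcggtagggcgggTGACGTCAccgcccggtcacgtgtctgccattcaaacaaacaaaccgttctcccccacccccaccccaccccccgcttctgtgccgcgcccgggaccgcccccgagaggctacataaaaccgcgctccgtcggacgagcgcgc
Btg2: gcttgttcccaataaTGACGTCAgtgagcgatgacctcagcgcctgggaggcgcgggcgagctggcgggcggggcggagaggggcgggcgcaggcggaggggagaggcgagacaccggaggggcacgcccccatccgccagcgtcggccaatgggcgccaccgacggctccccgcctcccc
Within 250 bases upstream, 6 of the 7 genes in the promoter table held TGACG on either strand, against 17.8% of 32851 promoters. The exception was *Jun*. The palindrome TGACGTCA stood in 2 of them, *Dusp1* and *Btg2*, against 1.55% of all promoters. A CArG box, the element of the serum response factor, was not matched in this window for any of the 7, against 1.47% of all promoters. A match describes letters only, and *Egr1* and *Ier2* are named without sequence.

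On GRCm38 with GENCODE M21, *Jun* (chr4:95049034-95052222) and *Ier2* (chr8:84661331-84662852) have 1 exon each. *Fos* lies at chr12:85473890-85477273, *Nr4a1* at chr15:101254269-101274795, *Atf3* at chr1:191170296-191218039, and *Btg2* at chr1:134075170-134079120. *Junb* (chr8:84974484-84978718) shares exonic sequence at its 3′ end with *Prdx2* on the opposite strand, and *Prdx2* had a mean of 4084 normalized counts. *Jun* overlaps the antisense gene *Junos*, which had 1 to 17 raw counts per library, and *Dusp1* (chr17:26505590-26562128) overlaps *Ergic1*, with a mean of 556. Whether counting used the strand is not given in the sources used here, so reads of *Junb* and *Prdx2*, whose 3′ ends overlap, cannot be told apart with certainty. By their coordinates, the overlaps of *Jun* with *Junos* and of *Dusp1* with *Ergic1* lie at the 5′ ends of both genes. These libraries were read from the 3′ ends.

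Levels differed widely between the genes. As mean normalized counts of 3′ reads over the 20 libraries, *Jun* was at 712, *Dusp1* at 692, *Btg2* at 263, *Junb* at 231, *Egr1* at 198, *Nr4a1* at 58.3, *Ier2* at 48.0, *Atf3* at 37.5, and *Fos* at 11.6. *Jun* and *Dusp1* are neighbours in this order and lie within the spread of either gene.

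HF was compared with NP to ask what high-fat feeding went with at normal protein. The transcript levels of all 9 genes were higher in HF than in NP on average, where 49.8% of all genes tested were higher. The median log2 fold change was 0.29 for the 9 genes and −0.00 for all genes tested. None of the 9 was called, with 37 genes called in all (0.264%). At an unadjusted p under 0.05, 3 of the 9 were higher (*Atf3*, *Egr1*, and *Btg2*), against 5.17% of all genes.

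**Figure D1:**
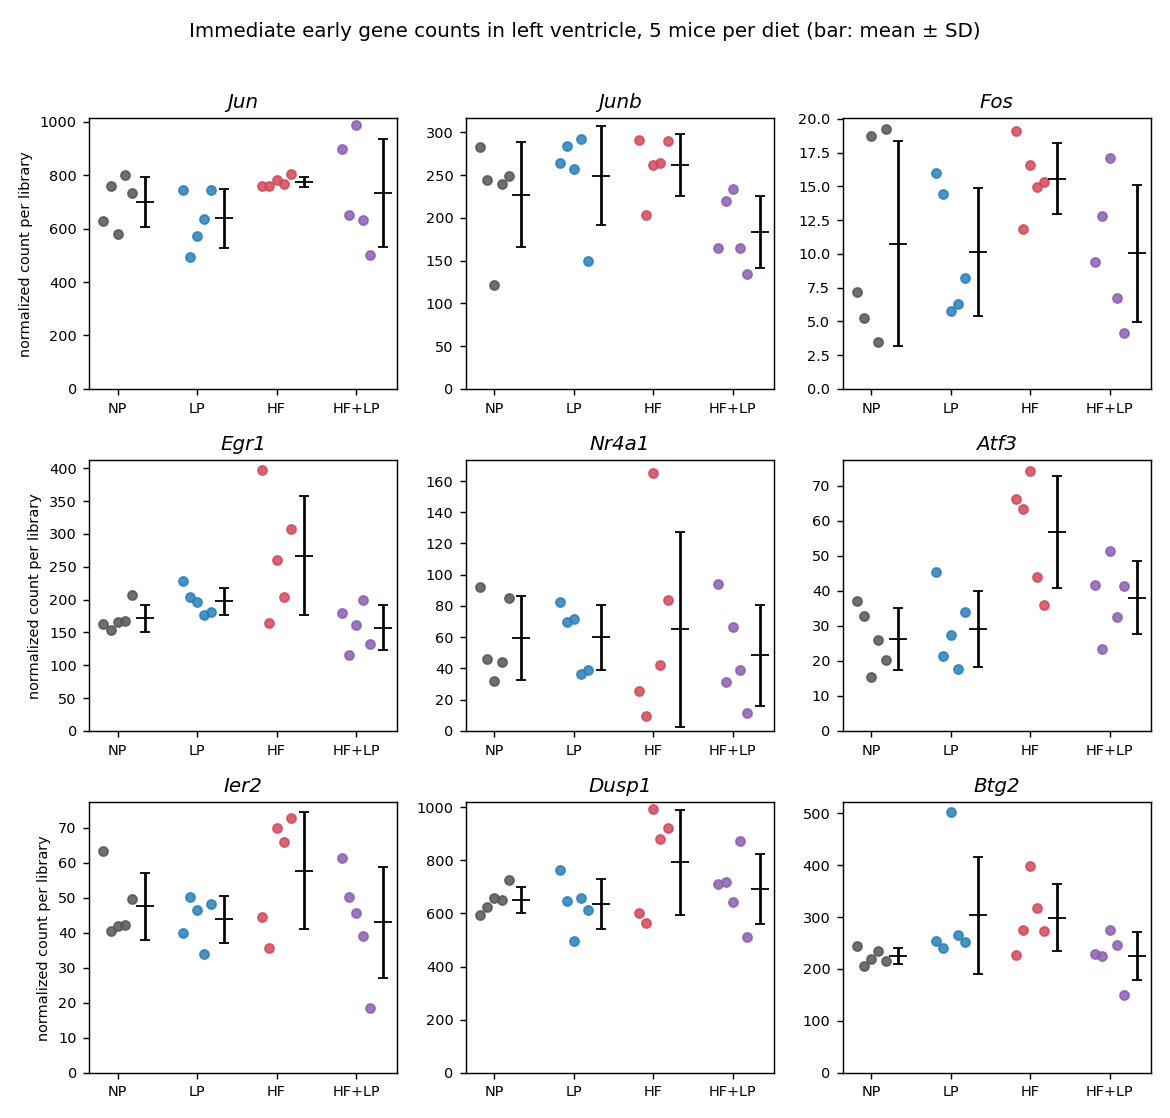
Normalized counts of the 9 immediate early genes, with 1 panel per gene, 1 point per mouse, and bars for the mean ± SD of 5 mice on each diet (linear axes from 0). For *Atf3*, 4 of 5 HF mice lie above every NP mouse, while HF values of *Nr4a1* run from 9.22 to 165.

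*Atf3* encodes a bZIP repressor and activator that is induced by many kinds of cell stress. Its normalized counts were 36.1, 44.0, 63.3, 66.1, and 74.2 in HF mice. In NP mice they were 15.4, 20.4, 25.8, 32.8, and 37.0. The groups overlapped by a single HF mouse, and 4 of 5 HF mice were above every NP mouse. The means of 56.7 ± 16.02 and 26.3 ± 8.81 gave a log2 fold change of 1.107 (SE 0.29, 95% interval 0.50 to 1.71), a 2.15-fold difference, with an edgeR adjusted p of 0.0621. With DESeq2 the adjusted p was 0.0119, and with only the HF and NP groups in the edgeR model it was 0.0458. The animal number as a block gave a log2 fold change of 0.92 and an edgeR adjusted p of 0.373, the largest over the alternatives. In that block NP mice 6 and 8, whose numbers no other mouse had, carried no weight.

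*Egr1* encodes a zinc finger transcription factor that follows growth factor and MAP kinase signals. HF mice had normalized counts of 165, 204, 261, 308, and 398. NP mice had 153, 162, 166, 168, and 207. The 3 highest values belonged to HF mice and the groups overlapped below them. The log2 fold change was 0.64 (SE 0.19, 95% interval 0.24 to 1.04), and the edgeR adjusted p was 0.0993. Without HF mouse 1, the highest of all 20 mice, it was 0.46 with an edgeR adjusted p of 0.249. DESeq2 on all mice gave an adjusted p of 0.0370, and over the alternatives the adjusted p lay between that and 0.544, the value from edgeR without the 6 libraries high in atrial markers.

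The AP-1 subunits, which bind DNA as pairs of Fos and Jun family proteins, showed smaller differences. *Jun* values lay between 759 and 805 in HF, a narrower range than in the other diets, and between 579 and 801 in NP. Its log2 fold change was 0.15 (SE 0.16), and without NP mouse 3 it was 0.084. *Junb* differed by 0.21 (SE 0.21), and without NP mouse 3 by 0.05. *Fos* was at 15.6 ± 2.62 in HF and 10.8 ± 7.61 in NP (log2 fold change 0.54, SE 0.44, 95% interval −0.38 to 1.45), from 4 to 23 raw reads per library. Its coefficient of variation within diets was 45.8%, against 29.3% from counting error alone. The log2 fold change was 0.29 without NP mouse 6 and 0.85 without NP mouse 8.

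Among the remaining genes, *Btg2*, an antiproliferative gene also induced through p53, had values of 228, 274, 275, 318, and 398 in HF and of 206, 216, 220.1, 235, and 245 in NP. Of the HF mice, 4 of 5 were above every NP mouse, and the log2 fold change of 0.41 (SE 0.20) had an edgeR adjusted p of 0.378. *Dusp1*, the phosphatase that switches MAP kinases off again, had 3 HF mice at 880.0, 923, and 993, above all NP mice. The other 2 HF mice were at 563 and 601, and the log2 fold change was 0.29 (SE 0.16). The 3 higher were HF mice 3, 4, and 5, whose library names share the first digit 3. Their libraries held 17796749 to 20111272 counts, against 13031879 and 12559607 for HF mice 1 and 2. *Ergic1*, which overlaps *Dusp1* at the 5′ ends, differed by 0.26. *Ier2*, a nuclear protein of less well known function, differed by 0.29 (SE 0.25). *Nr4a1*, an orphan nuclear receptor, differed by 0.16 (SE 0.55), and without HF mouse 3 by −0.53. Both *Ier2* and *Nr4a1* were also higher in HF mice 3, 4, and 5 than in HF mice 1 and 2. The part of library size in these values was not tested.

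HF + LP was compared with HF to ask what low protein went with under high fat. This comparison shares the HF mice with the previous one. All 9 genes were lower in HF + LP on average, where 46.3% of all genes tested were lower, with a median log2 fold change of −0.45 against 0.02 for all genes. No gene of the 13991 was called by edgeR (0%) and 16 were by DESeq2, none of them among the 9, while 677 genes had an unadjusted p under 0.05. Of the 9 genes, 2 were lower at that level (*Egr1* and *Junb*), against 2.43% of all genes.

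*Egr1* values in HF + LP were 115, 132, 162, 179, and 199. The HF mice at 204, 261, 308, and 398 were above all of these, and the HF mouse at 165 was not. The log2 fold change was −0.76 (SE 0.19, 95% interval −1.16 to −0.37), rank 40 of 13991 genes by p, with an edgeR adjusted p of 0.238. Without HF mouse 1 it was −0.58. DESeq2 gave an adjusted p of 0.0329, whereas edgeR gave 0.490 with only the HF + LP and HF groups in the model, 0.412 with the animal number as a block, and 0.708 without the 6 libraries high in atrial markers.

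*Junb* had normalized counts of 134, 165, 165, 220.1, and 234 in HF + LP and of 203, 262, 264, 290.0, and 291 in HF. The groups overlapped at the HF mouse with 203. The log2 fold change of −0.51 (SE 0.21) had an edgeR adjusted p of 0.819. *Prdx2*, whose 3′ exon it overlaps, differed by 0.17 in this comparison.

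*Atf3* was at 38.0 ± 10.5 in HF + LP, between HF and NP, with a log2 fold change to HF of −0.57 (SE 0.28, edgeR adjusted p 0.999). Log2 fold changes of the other genes were −0.62 for *Fos*, −0.45 for *Nr4a1*, −0.44 for *Ier2*, −0.41 for *Btg2*, −0.20 for *Dusp1*, and −0.08 for *Jun*. The 95% intervals of all 6 included 0. *Ergic1*, the gene overlapping *Dusp1* at the 5′ ends, differed by −0.17. Without HF + LP mouse 5 the difference was −0.24 for *Ier2* and 0.031 for *Jun*. Without HF mouse 3 it was −0.10 for *Dusp1* and 0.23 for *Nr4a1*, and without HF + LP mouse 3 it was −0.94 for *Fos* and −0.24 for *Jun*.

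**Figure D2:**
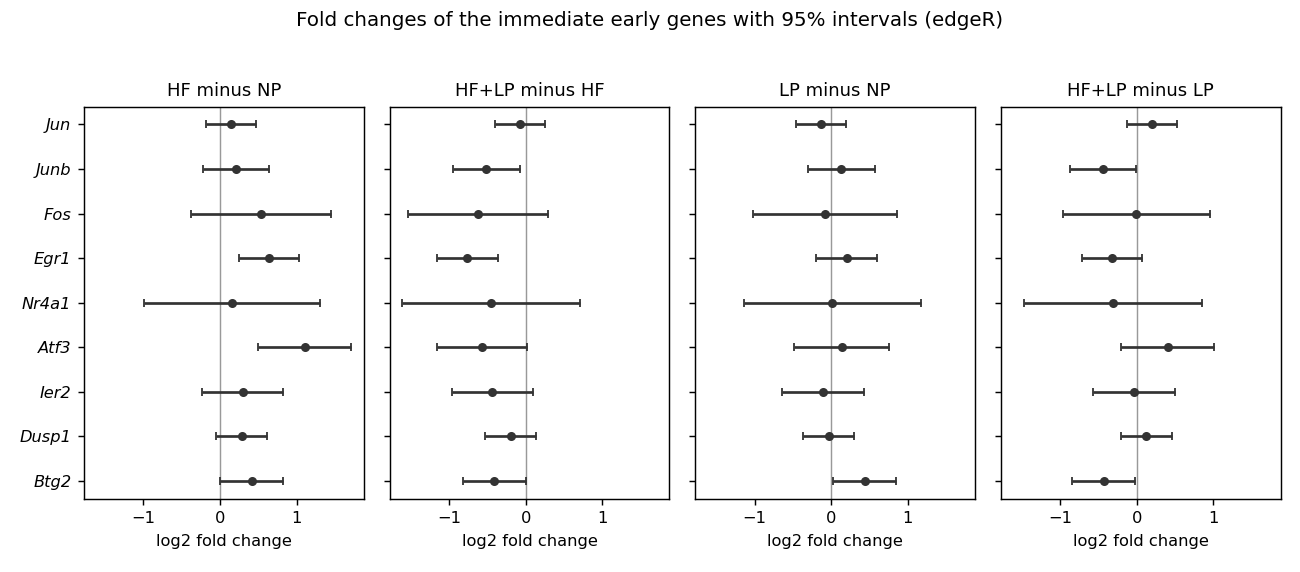
Log2 fold changes of the 9 genes from edgeR (points) with 95% intervals (bars) in the 4 comparisons between diets, 5 mice per diet. In the HF minus NP panel all points lie above 0, from 0.15 to 1.107, and in the HF + LP minus HF panel all lie below 0, from −0.76 to −0.08.

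The difference made by protein restriction without high fat was examined by comparing LP with NP. Of the 9 genes, 5 were higher and 4 lower, where 54.6% of all genes tested were higher, with a median log2 fold change of 0.01 against 0.02 for all genes. None was called, and edgeR called no gene at all (0%) and DESeq2 4, with 1012 genes at an unadjusted p under 0.05. *Btg2* alone of the 9 was below that p, against 7.23% of all genes. Its LP values were 239.6, 252, 254, 266, and 503, and 4 of 5 LP mice were above every NP mouse. The log2 fold change was 0.44 (SE 0.20, edgeR adjusted p 0.664), and without LP mouse 20 it was 0.18.

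High fat at low protein was examined by comparing HF + LP with LP, which shares mice with the comparisons above. Here 3 genes were higher and 6 lower, where 54.2% of all genes tested were lower, with a median of −0.03 for the 9 genes and −0.03 for all genes. None was called, with 14 genes called in all (0.1%), and 2 genes were lower at an unadjusted p under 0.05, against 9.66% of all genes. These were *Junb*, at −0.44 (SE 0.21) and −0.14 with the animal number as a block, and *Btg2*, at −0.43 (SE 0.20) and −0.18 without LP mouse 20.

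The interaction, the HF + LP minus LP difference less the HF minus NP difference, asks whether fat went with a different response at low protein. It was negative for 8 of 9 genes, where 51% of all genes were negative, with a median of −0.54 against −0.01 for all genes. No gene was called by edgeR (0%) and 1 by DESeq2, which was none of the 9, with 1003 genes at an unadjusted p under 0.05. *Egr1* (−0.96, SE 0.27), *Btg2* (−0.84, SE 0.28), and *Junb* (−0.65, SE 0.29) were below that p, against 4.31% of all genes in that direction. Their edgeR adjusted p-values were 0.614, 0.628, and 0.689. *Jun* alone was positive (0.06, SE 0.22), and it was −0.098 without HF + LP mouse 3, −0.34 with the animal number as a block, and −0.23 without the 6 libraries high in atrial markers. *Nr4a1* turned to 0.22 without HF mouse 3.

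One test of any difference among the 4 diets called none of the 9 and 67 genes in all (0.479%). The smallest edgeR adjusted p-values were 0.0811 for *Egr1* and 0.0875 for *Atf3*. DESeq2 gave adjusted p-values of 0.0117 and 0.0125 for them, and the largest under an alternative were 0.474 for *Egr1* (without the libraries high in atrial markers) and 0.673 for *Atf3* (with the animal number as a block), both from edgeR. By edgeR, 2 of 9 were at an unadjusted p under 0.05, against 15.9% of all genes. Differences between diets held 51.4% of the variance between mice for *Atf3* and 48.0% for *Egr1*, against a median of 17.2% over all genes tested. For *Nr4a1* the share was 5.42%.

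Groups did not fully separate for any of the 9 genes in any comparison. Of all genes tested, groups did not overlap for 5.67% in HF against NP, 1.18% in HF + LP against HF, 0.786% in LP against NP, and 1.87% in HF + LP against LP.

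Mice on the same diet differed strongly for some of the genes. *Nr4a1* in HF was at 9.22, 25.4, 42.2, 83.6, and 165, and across all 20 mice its highest value was 17.9-fold its lowest. The biological coefficient of variation from edgeR, the spread left after counting error, was 0.599 for *Nr4a1*, at percentile 96.6 of all genes tested, whose median was 0.203. For *Fos* it was 0.396, and for *Jun* (0.182) and *Dusp1* (0.185) it was below that median. Of the 9 genes, 7 were above it.

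**Figure D3:**
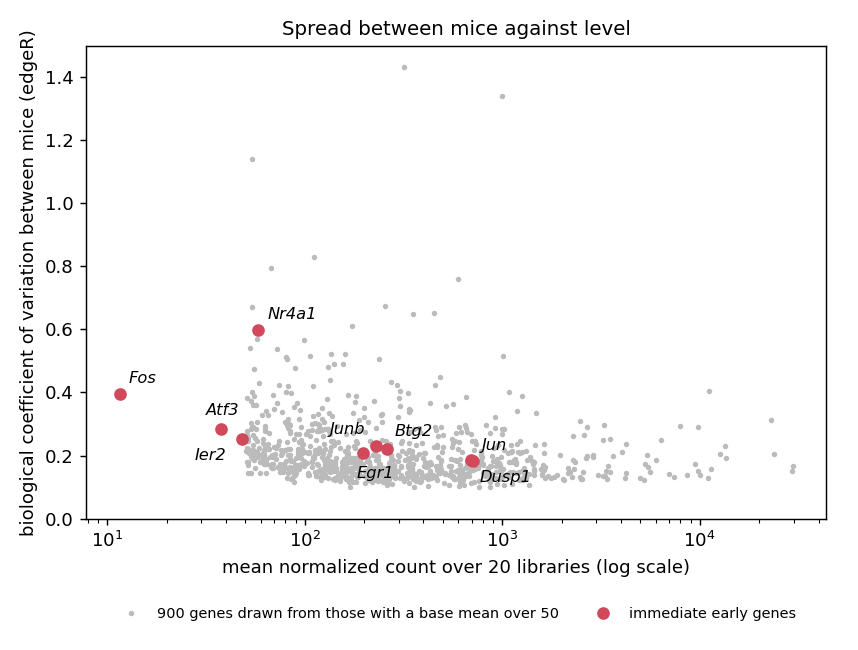
Biological coefficient of variation between mice (edgeR) against the mean normalized count over 20 libraries (log axis), for the 9 immediate early genes (red) and 900 genes drawn from those with a mean over 50 (grey). *Nr4a1* lies at 0.599 and *Jun* at 0.182.

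A score per mouse was the mean over the 9 genes of log2 CPM centred on each gene. It was 0.27 ± 0.32 for HF, −0.02 ± 0.18 for LP, −0.10 ± 0.19 for NP, and −0.15 ± 0.38 for HF + LP mice (mean ± SD, n = 5), and it was not tested because the genes were chosen with results known. HF minus NP was 0.36 and HF + LP minus HF was −0.41, both about as large as the SD between HF or HF + LP mice. Of the HF mice, 4 of 5 were above every NP mouse. The 3 highest scores of the 20 mice were those of HF mice 3, 4, and 5, whose library names share the first digit 3. HF + LP mice 3, 4, and 5 had that digit too, and HF + LP mouse 5 had the lowest score.

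Single mice stood at the ends of several genes at once. In HF + LP mouse 5, 8 of 9 genes were among the 3 lowest values of the 20 mice, *Atf3* being the exception. In HF mouse 3, 6 of 9 were among the 3 highest. Without HF + LP mouse 5, the score difference of HF + LP from HF was −0.26. Without HF mouse 3, the score difference of HF from NP was 0.26.

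**Figure D4:**
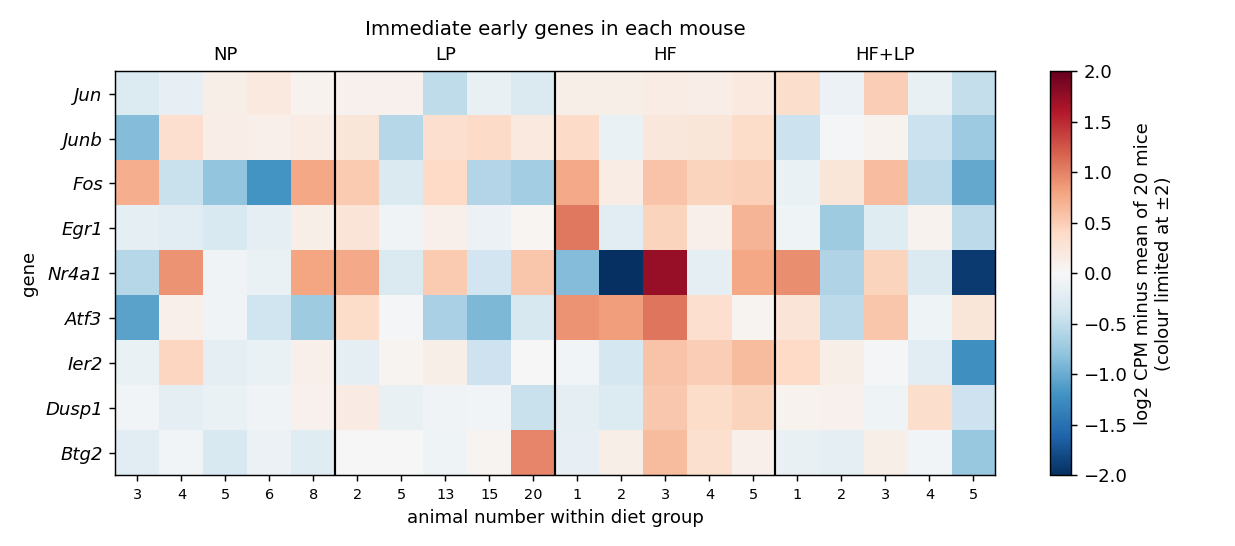
Log2 CPM of each gene in each mouse minus its mean over the 20 mice (colour, limited at ±2), with mice in columns by diet and animal number. HF + LP mouse 5 is low for 8 of 9 genes, and HF mouse 3 is highest for *Nr4a1*.

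Whether the genes varied together between mice was examined on log2 CPM centred on each diet, with 100000 permutations within diets. With *Fos* as the reference, none of 8 relations passed, the largest by Pearson r being *Ier2* (r = 0.36, rho = 0.33, permutation p = 0.122, adjusted 0.244 over the 8). That r was 0.14 without HF + LP mouse 5 and 0.091 without the 2 mice farthest from the median of *Fos*. The smallest permutation p was that of *Dusp1* (r = 0.33, rho = 0.35, p = 0.0781) and the largest rho that of *Egr1* (0.41). Because *Fos* had few reads, all 36 pairs were then examined, a choice made after its counts had been seen. The correlation was above 0 for 31 pairs, with a median of 0.24. *Ier2* and *Nr4a1* alone passed an adjusted p under 0.05, with r = 0.82 (permutation p = 0.00015, adjusted 0.0054 over the 36 pairs) and rho = 0.79 (adjusted permutation p = 0.0259). Leaving out the 2 mice farthest from the median gave r = 0.77 by *Ier2* and 0.83 by *Nr4a1*. Within diet and the number in the library name it was 0.74, where the adjusted permutation p was 0.474. Few mice shared both, so too few arrangements existed for a single pair to pass after adjustment over the 36 pairs. All points share library depth and composition.

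**Figure D5:**
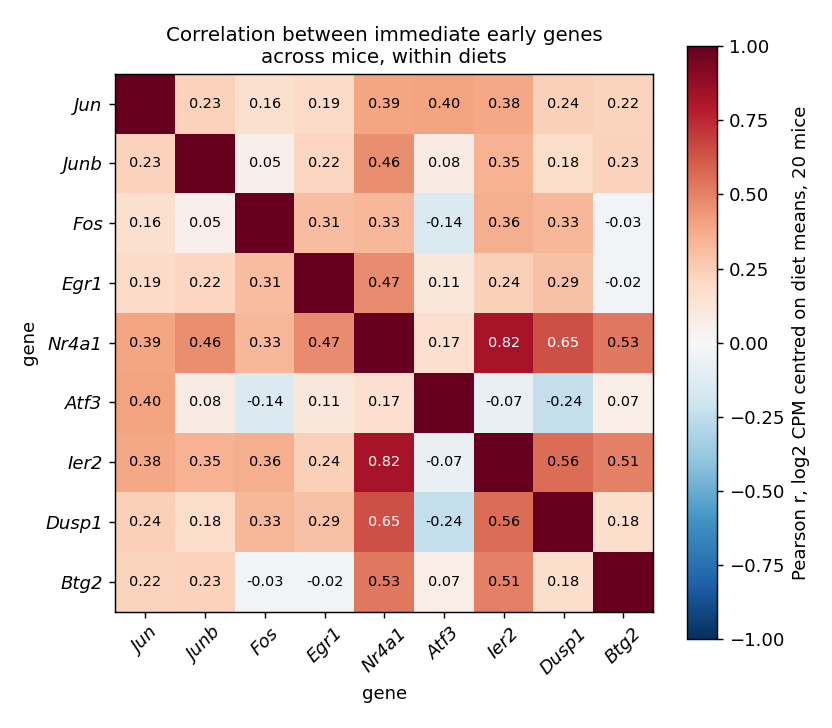
Pearson r between each pair of the 9 genes over 20 mice, from log2 CPM centred on diet means (colour scale from −1 to 1). *Ier2* and *Nr4a1* reach 0.82, *Nr4a1* and *Dusp1* 0.65, and *Atf3* and *Dusp1* −0.24.

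*Nr4a1* also went with *Dusp1* (r = 0.65) and *Btg2* (r = 0.53), and *Ier2* with *Dusp1* (r = 0.56) and *Btg2* (r = 0.51), none of which passed after adjustment. *Atf3* was correlated least with the others, with r between −0.24 and 0.40.

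A longer list of 50 other immediate early and primary response genes was examined beside the 9. Of these, 44 were tested and none was called in any comparison. In HF against NP, 35 of 44 were higher (median log2 fold change 0.23), with 6 higher and 1 lower at an unadjusted p under 0.05, against 5.17% and 7.91% of all genes. Between HF + LP and HF, 32 of 44 were lower (median −0.16), with 1 lower at that p, against 2.43% of all genes. In LP against NP 24 were higher (median 0.01) and in HF + LP against LP 18 were (median −0.04). *Dusp5*, a nuclear ERK phosphatase, was lowest in NP mice (18.4 ± 5.14), followed by HF + LP (26.3 ± 6.69), HF (33.3 ± 12.5), and LP mice (38.5 ± 9.96). *Dusp2* was at 26.5 ± 39.6 in LP and between 6.03 and 9.62 on average in the other diets, but without LP mouse 20 (96.9) the LP mean was 8.89. *Klf2*, a flow-responsive factor of endothelium, was at 1088 ± 72.2 in LP and 1293 ± 126 in NP.

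Of 24 upstream kinases and factors, none was called. In HF against NP, 10 were higher and 14 lower (median −0.07), and in HF + LP against HF 15 were higher (median 0.02). The median was −0.02 in LP against NP and 0.01 in HF + LP against LP. *Mapk3*, which encodes ERK1, was at 1239 ± 62.2 in HF and 993 ± 84.3 in NP. *Mapk14*, which encodes p38α, was at 619 ± 67.3 in HF + LP and 489 ± 40.0 in HF. *Crtc1*, a CREB coactivator, was at 71.9 ± 6.69 in HF and 101 ± 44.2 in NP, but without NP mouse 4 (174) the NP mean was 82.9.

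Lists that bear on handling, stress hormones, and time of collection were examined for the same mice. Of 12 heat shock genes, 11 were higher in HF than NP (median 0.35), where 49.8% of all genes were. In HF + LP against LP, 12 were higher (median 0.28), where 45.8% of all genes were, and none was called. At an unadjusted p under 0.05, 4 were higher and 0 lower in each of these comparisons, against 5.17% and 6.26% of all genes higher. Medians were 0.07 in HF + LP against HF and 0.05 in LP against NP. The chaperones *Hsph1* and *Dnaja1* differed by 0.47 and 0.44 in HF against NP, and the mitochondrial chaperonin *Hspd1* by 0.26 in HF + LP against HF. Of 12 glucocorticoid-responsive genes, 9 were higher in HF than NP (median 0.28), where 49.8% of all genes were. In HF + LP against HF, 11 were lower (median −0.23), where 46.3% of all genes were, and none was called. Their medians were 0.11 in LP against NP and 0.18 in HF + LP against LP. *Cdkn1a*, the cell cycle inhibitor p21, differed by 1.35 in HF against NP with an edgeR adjusted p of 0.0222, and the kinase gene *Sgk1* by 0.36.

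Of 15 clock genes, 12 were lower in HF than NP (median −0.52), where 50.2% of all genes were, none called. At an unadjusted p under 0.05, 4 were lower and 2 higher, against 7.91% and 5.17% of all genes. *Per3*, *Per1*, and *Hlf* differed by −1.52, −1.08, and −0.76, and *Per1* belongs to the longer immediate early list and the glucocorticoid list as well. The clock medians were 0.02 in HF + LP against HF, −0.27 in LP against NP, and −0.32 in HF + LP against LP. Of 7 nuclear RNAs, all 7 were lower in HF than NP (median −0.73), where 50.2% of all genes were. *Neat1*, the paraspeckle RNA, was called there (log2 fold change −1.20, edgeR adjusted p 0.000389) and in HF + LP against LP (−0.89, edgeR adjusted p 0.009). *Meg3* and *Snhg11* differed by −0.83 and −0.73 in HF against NP. The medians of this list were 0.40 in HF + LP against HF, 0.04 in LP against NP, and −0.42 in HF + LP against LP. The part of any of these lists in the values of the 9 genes was not tested.

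Cell type markers moved with some comparisons too. The 7 macrophage markers summed to 208 ± 38.8 CPM in NP (162.9 to 259.6), 299 ± 39.9 in HF (239.0 to 342), 257 ± 116 in LP (145 to 428), and 192 ± 28.5 in HF + LP (154 to 234). At an unadjusted p under 0.05, 4 of 7 were higher in HF than NP, where 5.17% of all genes were, and 2 of 7 lower in HF + LP than HF, where 2.43% were. Of the neutrophil markers, 3 of 3 tested were higher at that p in HF and in LP, each against NP, where 5.17% and 5.02% of all genes were, at mean sums of 5.67 CPM for NP, 13.0 for HF, 11.6 for LP, and 10.8 for HF + LP. Fibroblast sums were highest for HF (1298 CPM), followed by LP (1120), NP (1019), and HF + LP (962), and 2 of 7 fibroblast markers were lower at that p in HF + LP than HF. Endothelial sums were 676 CPM for HF, 611 for HF + LP, 591 for LP, and 526 for NP. Adipocyte markers ranged from 0.54 to 340.0 CPM over the libraries, and 5 of 5 were lower at that p in HF + LP than LP (median log2 fold change −4.69), where 9.66% of all genes were. The LP mean was 101 CPM and the LP median 6.73. Without LP mouse 13, the highest, the LP mean was 41.2 and 4 of 5 were lower at that p (median −3.33). Smooth muscle and pericyte sums were 474 to 505 CPM on average, with 2 of 6 markers lower at that p in HF than NP (median −0.46) and 2 of 6 in HF + LP than LP (median −0.27), where 7.91% and 9.66% of all genes were. Erythroid sums were 5597 CPM for NP, 8939 for HF, 9669 for HF + LP, and 9813 for LP. No marker list had a defining gene at 0 throughout, and the part of these cells in the values of the 9 genes was not tested. Without the 6 libraries over 1000 CPM of atrial markers, 8 of 9 genes were higher in HF than NP and 9 of 9 lower in HF + LP than HF, *Atf3* differed by 0.94 and *Egr1* by 0.37 in HF against NP, and *Egr1* by −0.54 in HF + LP against HF.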

How the data were processed

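RNA was extracted from left ventricular tissue with Trizol and a column kit, and QuantSeq 3′ mRNA libraries were sequenced in single short reads and aligned with BlueBee software. The authors deposited raw counts of reads per Ensembl gene and mouse, without normalization. The submitters' processing notes name DESeq2 1.22.2 and GRCm38. The annotation, the counting program, and the use of strand are not given in the sources used here. Every gene in the table had at least 60 reads in total.

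Groups and animal numbers were taken from the sample labels. No 2 libraries held identical counts. The analysis used edgeR 4.0.16 in R 4.3.3. After filterByExpr by diet and TMM scaling, genes were tested with the quasi-likelihood test in a model of all 20 libraries, with Benjamini-Hochberg adjustment over the 13991 genes tested. Each SE was derived from the F statistic. Normalized counts are counts scaled by TMM to the average library. Log2 CPM used a prior count of 2. The script was tested on simulated data. With 5 mice per group, the tests set a difference between diets against the spread between these mice. For the genes listed, that spread was wider than counting error. The range of total counts is given in the report.

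Alternatives were DESeq2 1.42.0, RLE size factors, an adjusted p under 0.05, no minimum of the mean count, no filter or 10 or more counts in all libraries, a covariate for the library number, a block for the animal number, a model of the 2 groups compared alone, and each mouse left out in turn. The library number is the first digit in the library name of the labels. Scores and correlations were also computed with a prior count of 0.5. Leaving out the highest LP mouse for *Dusp2* and the adipocyte markers, and the highest NP mouse for *Crtc1*, was chosen after the data had been seen.

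The 10 listed genes are all named. From every other list, up to 3 genes with the smallest p for any diet difference and any gene called in a comparison are named, and of genes outside the list the 5 most like and the 3 least like the member score, of which 1 is not reported here. *Prdx2*, *Junos*, and *Ergic1* are named because they overlap a listed gene. The members and lists were chosen with earlier results of these data known. Pairing was checked through the deviations of same-numbered mice from their diet means. The mean correlation was −0.24 over 3 pairs of HF and NP mice and −0.04 over 5 pairs of HF + LP and HF mice. It was 0.21 in the single pair of LP and NP mice and 0.18 over 2 pairs of HF + LP and LP mice. Because not every pair was above 0.1, mice were not treated as paired. Symbols were found for 15917 of 15956 genes, and promoters came from RefSeq tables on GRCm38.p6. Figures were drawn with matplotlib 3.10.9.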

Additional observations from a re-analysis of the deposited data

Results flagged for a closer look

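Among 40 groups of 5 values (the 9 genes and the member score, each in 4 diets), 4 held a mouse far from the other 4 by Dixon's criterion, which chance alone meets in about 1 of 20 groups. *Junb* was at 121 normalized counts in NP mouse 3, where the other NP mice were between 240.0 and 283. *Junb* was also low in LP mouse 5, at 149.8, where the other LP mice were between 257 and 292. *Egr1* was at 207 in NP mouse 8, where the other NP mice were between 153 and 168. *Btg2* was at 503 in LP mouse 20, where the other LP mice were between 239.6 and 266.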

How the results depend on the processing

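No immediate early gene was called under any alternative, including DESeq2, an adjusted p under 0.05, and each mouse left out in turn. The alternatives were changed singly. With DESeq2, *Egr1* had adjusted p-values between 0.01 and 0.05 in HF against NP (0.0370), in HF + LP against HF (0.0329), and for any diet difference (0.0117). Over all genes tested, DESeq2 called 163 in HF against NP where edgeR called 37, 84 in HF + LP against LP where edgeR called 14, and 327 for any diet difference where edgeR called 67, and where edgeR called 0 it called 16 in HF + LP against HF, 4 in LP against NP, and 1 for the interaction. Without 1 mouse at a time, 8 to 9 of 9 genes were higher in HF than NP and 8 to 9 lower in HF + LP than HF, and the score differences lay between 0.26 and 0.48 for HF minus NP, −0.53 and −0.26 for HF + LP minus HF, 0.01 and 0.13 for LP minus NP, and −0.22 and 0.03 for HF + LP minus LP. The cause was not tested for any of the changes below. *Fos* had 4 to 23 reads per library, so counting error alone gave a coefficient of variation of 29.3%, of 45.8% observed within diets. Log2 fold changes that changed sign when a mouse was left out lay, for *Nr4a1*, between −0.53 and 0.42 in HF against NP, −0.83 and 0.23 in HF + LP against HF, −0.15 and 0.22 in LP against NP, and −0.85 and 0.22 for the interaction. For *Fos* they lay between −0.33 and 0.23 in LP against NP and −0.28 and 0.19 in HF + LP against LP. For *Ier2* they lay between −0.16 and 0.015 in LP against NP and −0.20 and 0.16 in HF + LP against LP. For *Jun* they lay between −0.24 and 0.031 in HF + LP against HF and −0.10 and 0.17 for the interaction. In LP against NP they lay between −0.062 and 0.29 for *Atf3*, −0.11 and 0.046 for *Dusp1*, and −0.026 and 0.27 for *Junb*. Correlations with *Fos* that changed sign lay between −0.30 and 0.024 for *Atf3*, −0.26 and 0.21 for *Btg2*, −0.065 and 0.32 for *Jun*, and −0.079 and 0.45 for *Junb*, and the correlation of *Ier2* with *Nr4a1* lay between 0.78 and 0.86. With the animal number as a replicate block, the score difference of HF + LP from LP was −0.52, from the 2 same-numbered pairs alone, against −0.13 from 5 mice per diet, and signs changed in LP against NP for *Fos* (0.43), *Jun* (0.24), *Junb* (−0.12), *Ier2* (0.10), and *Dusp1* (0.30), in HF + LP against LP for *Jun* (−0.12), *Atf3* (−0.18), and *Dusp1* (−0.076), and in the interaction for *Jun* (−0.34). The block changed no call. NP mice 6 and 8 and LP mice 13, 15, and 20 had numbers that no other mouse had, so they carried no weight in it. A covariate for the library number turned *Nr4a1* in LP against NP to −0.065 and *Fos* in HF + LP against LP to 0.11, which was 0.0030 with no filter on low counts. Without the 6 libraries high in atrial markers, an alternative chosen after the data had been seen, *Nr4a1* was at −0.43 in HF against NP, *Jun* at 0.018 in LP against NP, −0.048 in HF + LP against LP, and −0.23 for the interaction, and *Atf3* at −0.024 in HF + LP against LP. Correlations with *Fos* centred within diet and library number were −0.17 for *Junb* and 0.39 for *Btg2*. Without centring they were 0.19 for *Atf3* and 0.14 for *Btg2*, and without the 2 mice farthest from the median of *Fos* −0.031 for *Junb*. The correlation of *Ier2* and *Nr4a1* within diet and library number was 0.74. It did not pass there, but the few mice sharing both left too few arrangements for a single pair to pass.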

Other observations

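Outside the list, the genes whose log2 CPM went most closely with the member score over the 20 mice, centred on diets, included *Ss18l2* (r = 0.93), *Nup88* (0.91), *Abt1* (0.91), and *Manf* (0.90). They were chosen from the highest of 10143 genes with a mean normalized count over 50, so no p is given, and the points share library depth and composition. *Manf* encodes a factor of the endoplasmic reticulum stress response. At the other end were *Sdccag8* (−0.95), *Ube4b* (−0.83), and *Brd9* (−0.81). In all, 739 of the 10143 genes had an r over 0.7 with the score. An r over 0.5 was found for 15.1% of the 10143 genes, and for 11 of the 36 genes of the longer immediate early list that were among the 10143. The score itself went most with *Nr4a1* (r = 0.94), the gene with the widest spread, and least with *Atf3* (r = 0.25).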
